A study of Homo sapiens with 5 samples.

Results

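The genes described here encode 10 transcription factors and transcriptional regulators with roles in the maturation of natural killer (NK) cells: EOMES, TBX21, ZEB2, PRDM1, NFIL3, TOX, TOX2, ID2, ETS1 and GATA3. They were found by symbol among the 57221 rows of a table of read counts per gene, each on 1 row, and all 10 were among the 13075 genes with enough reads to be tested. The reads came from NK92MI, an established human NK cell line that carries an introduced IL2 gene and so grows without added interleukin 2. One group of 2 libraries came from cells given the solvent DMSO for 48 h, and the other group of 3 libraries came from cells given 10 µM UNC1999 for 48 h. UNC1999 is a small molecule inhibitor of EZH2 and EZH1, the histone methyltransferases of polycomb repressive complex 2. The comparison asks how expression in these NK cells responds to the inhibitor. A single cell line was used, and the labels do not state whether libraries of a group were grown as separate cultures, so the p-values below describe the spread between these libraries, which may be technical.

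NK cells arise from lymphoid progenitors under a sequence of transcription factors. NFIL3, ID2, ETS1, TOX and TOX2 are known for early steps of the lineage, and GATA3 for the survival and migration of NK cells and for other lymphoid lineages. The T-box factors EOMES and TBX21 (T-bet) direct maturation and the expression of cytotoxic and cytokine receptor genes, while ZEB2 and PRDM1 (Blimp-1) act in late, terminal maturation. Polycomb repressive complex 2 methylates histone H3 at the promoters of many developmental transcription factor genes, often ones rich in CG dinucleotides, and the mark is associated with silencing.

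After UNC1999, EOMES and ID2 were lower by 40.1% and 34.4%, NFIL3 and GATA3 were lower by 23.3% and 22.0%, and ZEB2 was 2.04-fold higher from a very low level. TBX21, TOX, TOX2, ETS1 and PRDM1 did not pass the test. Counted with edgeR's quasi-likelihood test at an adjusted p under 0.05, 1 of 10 genes was higher (background 15.7% of all tested genes) and 4 of 10 were lower (background 19.5%). The median log2 fold change of the 10 genes was -0.15, against -0.012 over all tested genes. In CPM, which are read counts relative to a library size scaled by TMM factors, every UNC1999 library lay below both DMSO libraries for 5 genes (background 30.4%) and above both for ZEB2 (background 24.2%). The summed level of the 10 genes was 2240 to 2298 CPM in DMSO and 1903 to 2070 CPM in UNC1999. On this scale the sum over all tested genes was also lower, at 1038000 to 1046000 CPM in DMSO and 948120 to 986250 CPM in UNC1999. That total is set by the TMM factors and is no measure of total expression. Summed levels of the marker genes below are on the same scale. In RNA from whole cultures, fewer cells expressing a gene and less of its RNA per cell cannot be told apart.

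Fold changes in these libraries moved with the GC content of the genes. In the 2204 tested genes of lowest GC content (up to 40.8%) the log2 fold changes had a median of 0.39. The median was -0.33 in the 2203 genes of middle GC content (45.4% to 51.2%) and 0.092 in the 2204 genes of highest (from 57.7%). Each gene was therefore fitted again with offsets for GC content and length, after which these medians were 0.037, -0.045 and 0.030. With the offsets, 0 of 10 genes were higher (background 15.8% of 11017 genes) and 3 were lower (background 18.4%): EOMES, ID2 and TOX. The calls of NFIL3, GATA3 and ZEB2 were lost, and the call of TOX was gained. The median log2 fold change of the 10 genes was then -0.13. The GC content of the longest transcript, used here, ran from 39.1% for ZEB2 and 41.2% for TOX to 59.7% for TBX21. EOMES (52.1%), ID2 (53.3%) and GATA3 (53.7%) lay between the middle and highest bands. TOX and ETS1 (42.6%) lay between the lowest and middle bands. No median is given here for either range between bands.

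**Figure D1:**
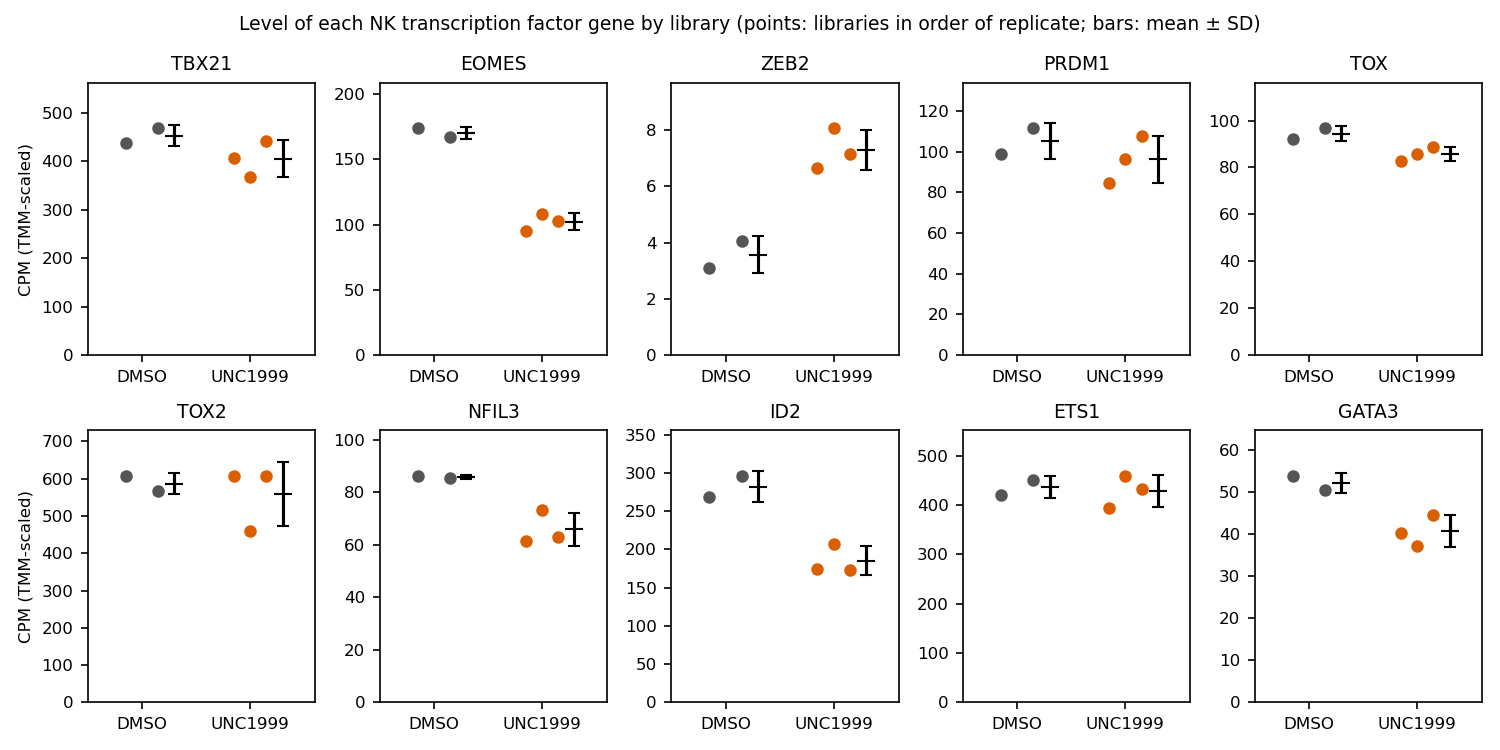
Level of each of the 10 genes in every library, in TMM-scaled CPM on axes from 0, with 1 point per library in order of replicate (DMSO grey, UNC1999 orange) and bars for the mean ± SD. EOMES and ID2 lie lower in all 3 UNC1999 libraries, ZEB2 lies higher at single-digit CPM, and the groups overlap for TBX21, TOX2, ETS1 and PRDM1.

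Depth was even, with library totals from 8442908 to 8748106 counts, at which 3 counts correspond to 0.343 to 0.355 CPM. UNC1999 replicate 2 stood apart within its group: chi-square per degree of freedom was 8.09 and 9.49 against replicates 1 and 3, which gave 1.87 between themselves, and the DMSO pair gave 3.29. Without this library the test again called 1 of the 10 genes higher (background 22.2% of 12880 genes) and 4 lower (background 23.5%). The log2 fold changes were then -0.77 for EOMES, -0.69 for ID2, -0.45 for NFIL3, -0.29 for GATA3 and 0.96 for ZEB2. The NK label was checked against 16 marker genes, of which 13 were tested, with a summed level of 7030 to 7196 CPM in DMSO and 6437 to 7232 CPM in UNC1999. NCR3 was listed at 0 in every library, as was the broadly expressed EHMT2. Whether such zeros reflect reads that were not assigned was not tested. KIR2DL4 had at most 1 count and TYROBP, a signalling adaptor of NK cells, 1 to 7 counts. Of the 13, CD7 was higher (log2 fold change 0.84, edgeR adjusted p = 7.38e-06) and the receptor gene CD244 was lower (-0.55, edgeR adjusted p = 1.47e-04), beside the background of 15.7% and 19.5%. With offsets 2 were higher and 3 lower (background 15.8% and 18.4%): CD244 was -0.18, and KLRD1, a receptor subunit described after its values were seen, went from -0.055 to -0.69 (edgeR adjusted p = 5.19e-05). Of 4 genes of the inhibited complex, SUZ12 was higher (log2 fold change 0.67, and 0.32 with offsets), and EZH2 (0.20) and EED (0.11) did not pass. EZH1 was lower at the edge of the threshold (-0.31, edgeR adjusted p = 0.0479) and was called in only 3 of 17 alternatives. It was 0.0018 and not called with offsets. Nor was EZH1 called when a DMSO library or UNC1999 replicate 1 or 3 was left out, from -0.34 to -0.25.

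Promoter sequences are shown for 4 genes, chosen as the T-box pair, in which one gene fell and one did not pass, the inhibitor gene ID2, which fell, and ZEB2, the gene that rose. Each is the 250 bases before the RefSeq start (GRCh38.p14), 5′ to 3′ on the strand of the gene, with CG dinucleotides in capitals. The EOMES stretch is chr3:27722324-27722573 on the minus strand, TBX21 chr17:47732986-47733235 on the plus strand, ID2 chr2:8681806-8682055 on the plus strand and ZEB2 chr2:144520120-144520369 on the minus strand.
EOMES: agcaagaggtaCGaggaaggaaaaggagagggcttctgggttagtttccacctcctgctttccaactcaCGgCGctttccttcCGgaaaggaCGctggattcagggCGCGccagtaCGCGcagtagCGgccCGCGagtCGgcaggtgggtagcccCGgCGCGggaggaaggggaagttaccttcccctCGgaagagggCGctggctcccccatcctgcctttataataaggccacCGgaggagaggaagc
TBX21: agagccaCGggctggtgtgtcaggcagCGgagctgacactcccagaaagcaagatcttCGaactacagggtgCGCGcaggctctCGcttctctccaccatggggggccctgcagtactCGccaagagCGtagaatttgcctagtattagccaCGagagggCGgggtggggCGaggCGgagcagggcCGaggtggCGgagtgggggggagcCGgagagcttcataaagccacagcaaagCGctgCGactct
ID2: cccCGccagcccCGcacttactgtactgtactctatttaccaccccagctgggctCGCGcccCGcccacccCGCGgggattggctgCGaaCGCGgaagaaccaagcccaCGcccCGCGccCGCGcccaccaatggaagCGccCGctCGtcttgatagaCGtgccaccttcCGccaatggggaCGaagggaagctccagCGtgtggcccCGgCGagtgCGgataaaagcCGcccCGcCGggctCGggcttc
ZEB2: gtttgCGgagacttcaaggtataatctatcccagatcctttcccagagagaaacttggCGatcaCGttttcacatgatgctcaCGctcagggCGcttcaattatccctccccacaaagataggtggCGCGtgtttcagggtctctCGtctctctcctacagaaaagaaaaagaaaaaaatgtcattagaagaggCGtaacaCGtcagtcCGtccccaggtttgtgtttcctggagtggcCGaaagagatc
The ID2 stretch held 29 CG dinucleotides, EOMES 19, TBX21 17 and ZEB2 12.

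Windows of 300 bases (250 before and 50 after the first listed start) were held for 8 of the 10 genes, all but TOX and ETS1. CG counts in them were 33 in ID2 and TOX2, 28 in NFIL3, 23 in TBX21, 21 in EOMES, 16 in GATA3 and 14 in ZEB2 and PRDM1. The median over 27305 promoters was 14, and 16.9% of all promoters held at least as many as ID2. Genes that fell and genes that did not pass both ranged widely: TOX2 matched ID2 in CG count. On both strands, the T-box core GGTGTGA was in 0 of the 8 windows and in 3.43% of all promoters. CACCTG, the sequence recognised by ZEB factors, was in the EOMES and PRDM1 windows and in 20.6% of all promoters. CAGCTG, an E-box of basic helix-loop-helix factors, was in EOMES, TOX2 and ID2 and in 17.7% of all promoters, and the STAT site TTCNNNGAA was in 0 of the 8 and in 7.88% of all. These matches are a description of the letters in the windows and no measure of binding.

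Of the T-box factors, EOMES fell and TBX21 did not pass the test. EOMES (chr3:27715949-27722711, minus strand; positions of genes are from GENCODE 29, GRCh38) was at 174 and 167 CPM in the DMSO libraries and at 95.1, 108 and 103 CPM in the UNC1999 libraries. All 3 treated libraries lay well below both controls. The means were 170 ± 4.61 (SD, n = 2) and 102 ± 6.52 CPM (SD, n = 3), a log2 fold change of -0.74 with a standard error (SE) of 0.11 (edgeR adjusted p = 1.86e-06). With GC and length offsets the log2 fold change was -0.42 (SE 0.07, edgeR adjusted p = 2.58e-05). EOMES stayed called lower in all 17 alternative analyses, with log2 fold changes from -0.77 to -0.42.

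TBX21 (chr17:47733244-47746119, plus strand), the other T-box factor, was at 437 and 467 CPM in DMSO and at 406, 368 and 442 CPM in UNC1999. The highest UNC1999 library exceeded the lower DMSO library, so the groups overlapped. Its log2 fold change of -0.16 (SE 0.11) had a 95% interval from -0.37 to 0.05 (edgeR adjusted p = 0.265, and 0.0810 with offsets), and no alternative called it. Intervals here are 1.96 SE on either side, a normal approximation that is somewhat narrow beside the F-test. The log2 ratio of EOMES to TBX21 counts within each library, which needs no scaling factor but is not corrected for GC content, was -1.33 and -1.48 in DMSO and -2.09, -1.77 and -2.10 in UNC1999. The groups did not overlap, and the mean ratio went from 0.377 to 0.252, a log2 difference of -0.58 (-0.69 without UNC1999 replicate 2). The exact two-sided permutation p was 0.1, the smallest that 2 against 3 libraries allow (0.4 adjusted over the 4 ratios tested). The GC content was 52.1% for EOMES and 59.7% for TBX21, and with offsets their log2 fold changes differed by -0.27.

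The repressor genes of late maturation are ZEB2 and PRDM1. ZEB2 (chr2:144364364-144524583, minus strand), a zinc finger repressor that acts with TBX21 in terminal maturation, was at 3.10 and 4.04 CPM in DMSO and at 6.66, 8.07 and 7.17 CPM in UNC1999. These values rest on 25 and 34 reads against 59, 74 and 63 reads. All treated libraries were above both controls, and the log2 fold change was 1.03 (SE 0.23, edgeR adjusted p = 5.19e-04). With offsets it was 0.54 (SE 0.22, edgeR adjusted p = 0.0616), so the call was lost. Its relative ZEB1, also a repressor and described after its values were seen, was at 5.46 CPM in DMSO and 9.39 CPM in UNC1999 (log2 fold change 0.78, edgeR adjusted p = 0.00296; 0.161 with offsets and 0.0537 without DMSO replicate 1). The log2 ratio of ZEB2 to ZEB1 was -0.75 and -0.50 in DMSO and -0.12, -0.36 and -0.56 in UNC1999, with overlapping groups (exact permutation p = 0.3, 0.4 adjusted).

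PRDM1 (chr6:106086320-106109939, plus strand), a zinc finger repressor of proliferation genes, was at 99.1 and 112 CPM in DMSO and at 84.5, 96.7 and 108 CPM in UNC1999. The groups overlapped. The log2 fold change was -0.13 with an interval from -0.36 to 0.10 (edgeR adjusted p = 0.407). It was -0.0070 with offsets (edgeR adjusted p = 0.959), and 0.037 with offsets and without UNC1999 replicate 2. Its longest transcript has a GC content of 45.7%, within the middle band of GC content, whose median was -0.33.

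**Figure D2:**
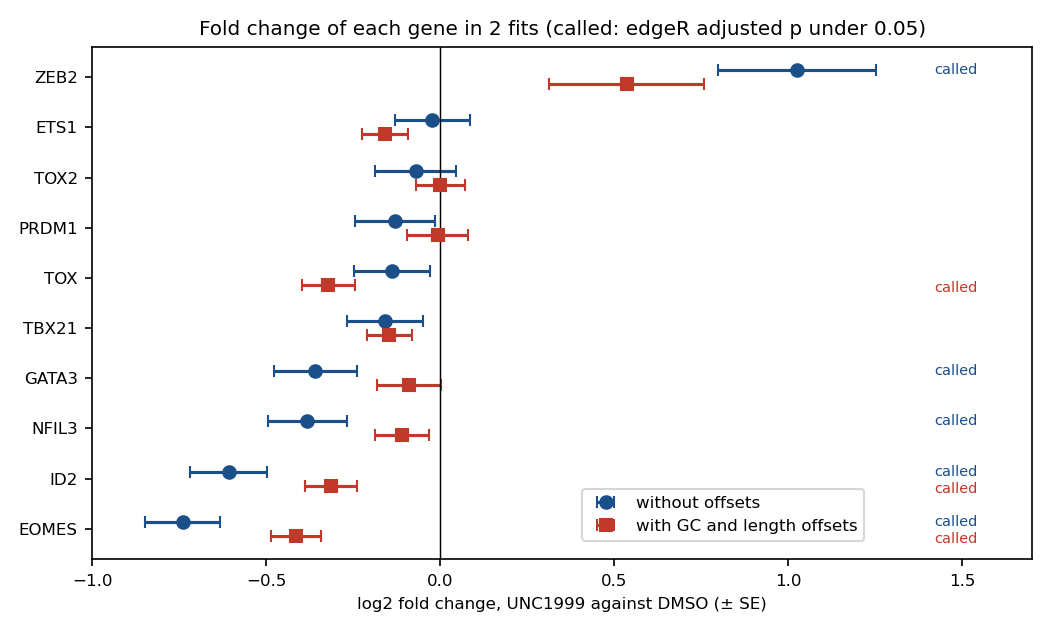
Log2 fold change of each of the 10 genes, UNC1999 against DMSO, from the fit without and with GC and length offsets, with bars of 1 SE and the word called where the edgeR adjusted p was under 0.05. EOMES and ID2 lie below 0 in both fits, ZEB2 moves from 1.03 to 0.54, and TOX moves from -0.14 to -0.32.

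Among the genes of early lineage steps, ID2 had the largest fold change without offsets, while with offsets TOX (-0.32) and ID2 (-0.31) were close. ID2 (chr2:8678845-8684453, plus strand) encodes an inhibitor without a DNA-binding domain that binds and blocks E proteins. It was at 268 and 296 CPM in DMSO and at 175, 207 and 173 CPM in UNC1999. The groups did not overlap, and the means were 282 ± 20.1 (SD, n = 2) and 185 ± 19.1 CPM (SD, n = 3). The log2 fold change was -0.61 (SE 0.11, edgeR adjusted p = 4.55e-05), and -0.31 with offsets (edgeR adjusted p = 0.00136). ID2 was called lower in all 17 alternatives, from -0.69 to -0.27.

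ID2-AS1 is annotated on the opposite strand across part of ID2 and had 11 and 6 reads in DMSO against 24, 14 and 11 in UNC1999 (log2 fold change 0.81, edgeR adjusted p = 0.154; 1.17 and 0.0353 with offsets). No source used here gives the strand setting of the counting, so reads of the pair may not be separated. GATA3-AS1 and ZEB2-AS1 had at most 2 reads in any library and were not tested.

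The balance of ID2 with its E protein partners TCF3, TCF4 and TCF12 was also compared. The log2 ratio of ID2 to their summed counts was 0.44 and 0.70 in DMSO and -0.30, 0.26 and -0.17 in UNC1999. The groups did not overlap, and the ratio went from 1.49 to 0.953. The log2 difference was -0.64, and -0.81 without UNC1999 replicate 2. The exact permutation p on these 5 libraries was 0.2 (0.4 adjusted). TCF3 made up 82.7% to 90.1% of the sum and did not pass the test (170 CPM in DMSO and 165 CPM in UNC1999, log2 fold change -0.044, edgeR adjusted p = 0.803). The log2 fold changes of ID2 and TCF3 differed by -0.56, and by -0.17 with offsets. TCF12 rose from 9.59 to 18.0 CPM (log2 fold change 0.90, edgeR adjusted p = 2.38e-05). Another inhibitor of the family, ID3, chosen after its values were seen, fell from 19.2 to 13.4 CPM (-0.52, edgeR adjusted p = 0.00722; 0.0753 without DMSO replicate 1).

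NFIL3 (chr9:91409045-91423862, minus strand), a basic leucine zipper factor needed for NK progenitors, was at 86.3 and 85.3 CPM in DMSO and at 61.3, 73.1 and 62.9 CPM in UNC1999. All UNC1999 libraries were lower, with replicate 2 the nearest to the controls. The log2 fold change was -0.38 (SE 0.11, edgeR adjusted p = 0.00744), beside a median of -0.33 for all tested genes in the middle band of GC content, which holds its 46.5%. It was -0.11 with offsets (edgeR adjusted p = 0.285), and the call was lost in 7 of 17 alternatives, including leaving out either DMSO library (edgeR adjusted p = 0.0828 and 0.0639) or UNC1999 replicate 1 (0.0637).

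GATA3 (chr10:8045378-8075203, plus strand), a zinc finger factor, was at 53.9 and 50.4 CPM in DMSO and at 40.3, 37.1 and 44.6 CPM in UNC1999. The groups did not overlap, and the log2 fold change was -0.36 (SE 0.12, edgeR adjusted p = 0.0164). With offsets it was -0.090 (edgeR adjusted p = 0.483). The call was lost in 8 of 17 alternatives, again including each DMSO library left out (0.175 and 0.0617) and UNC1999 replicate 1 left out (0.0595).

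ETS1 (chr11:128458761-128587558, minus strand), the founding member of the ETS family, was at 420 and 451 CPM in DMSO and at 395, 460 and 433 CPM in UNC1999. The log2 fold change was -0.023 with an interval from -0.23 to 0.19 (edgeR adjusted p = 0.893), and its sign turned in 7 of 17 alternatives. With offsets it was -0.16 and not called (edgeR adjusted p = 0.060). With offsets and without UNC1999 replicate 2 it was -0.16 and called (edgeR adjusted p = 0.0395). ETS1 was called in only 1 of 17 alternatives.

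TOX and TOX2 are high mobility group box factors of the early lineage. TOX (chr8:58805418-59119208, minus strand) was at 92.3 and 96.7 CPM in DMSO and at 82.9, 85.9 and 88.6 CPM in UNC1999. All UNC1999 libraries were slightly lower, and the log2 fold change, -0.14 (SE 0.11), did not pass (edgeR adjusted p = 0.340). With offsets it was -0.32 (SE 0.08, edgeR adjusted p = 0.00134), which passed the threshold. TOX2 (chr20:43914864-44069616, plus strand) was at 606 and 567 CPM in DMSO and at 608, 460 and 607 CPM in UNC1999. UNC1999 replicate 2 was the low library, and the log2 fold change of -0.071 (interval -0.30 to 0.16, edgeR adjusted p = 0.675) was 0.062 without it. The log2 ratio of TOX to TOX2 was -2.72 and -2.55 in DMSO and -2.88, -2.42 and -2.78 in UNC1999, with overlapping groups (exact permutation p = 0.8, 0.8 adjusted). The log2 fold changes of TOX and TOX2 differed by -0.068, and by -0.32 with offsets. TOX4, a relative named after its values were seen, fell from 112 to 83.2 CPM (log2 fold change -0.42, edgeR adjusted p = 0.00294; -0.23 with offsets; adjusted p = 0.176 without DMSO replicate 1).

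**Figure D3:**
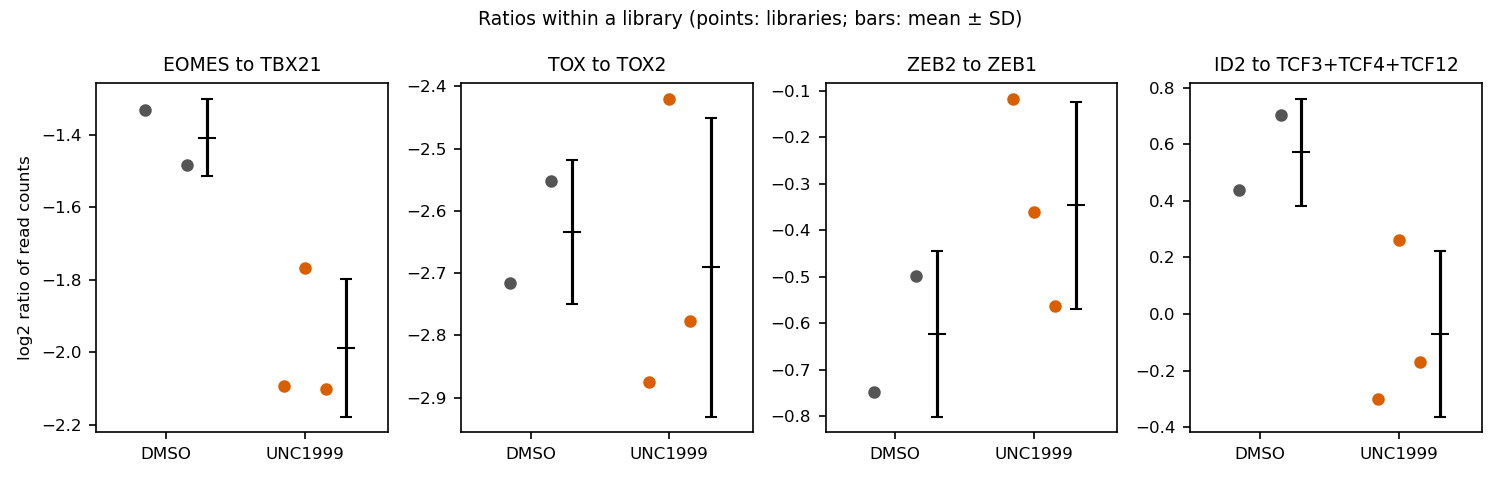
Log2 ratio of counts within each library for the 4 pairs compared, with 1 point per library and bars for the mean ± SD. The EOMES to TBX21 and ID2 to E protein ratios are lower in all 3 UNC1999 libraries, and the other pairs overlap.

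**Figure D4:**
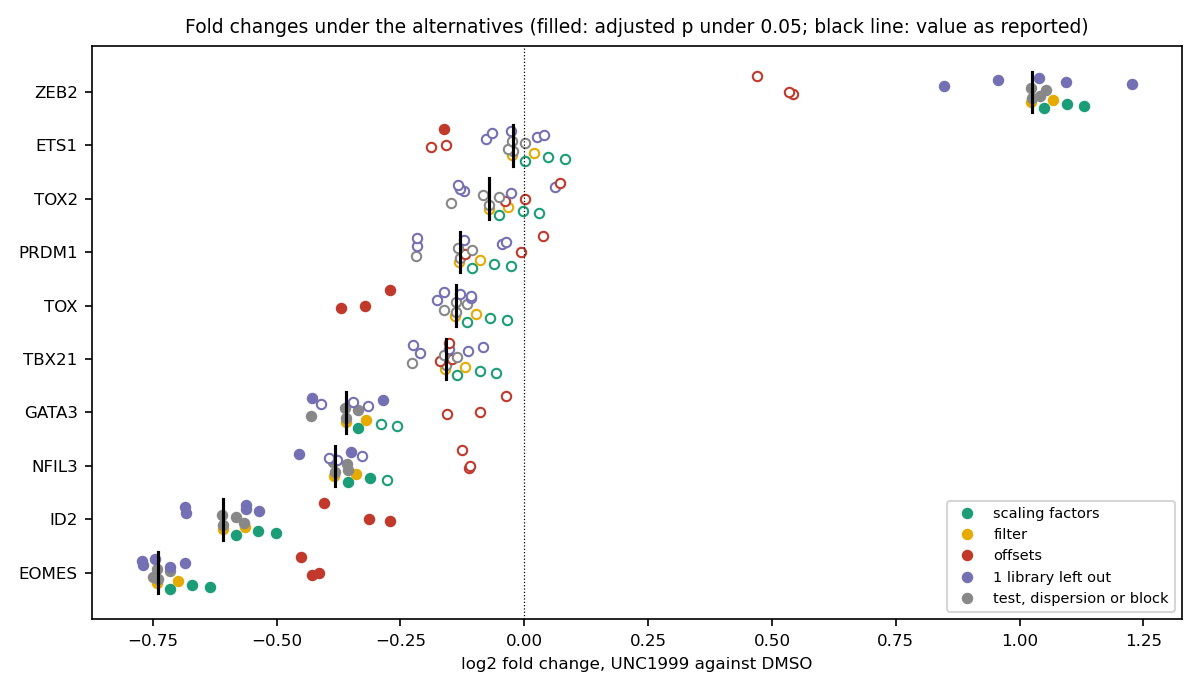
Log2 fold change of the 10 genes on the horizontal axis, with a black line for the reported value and a point for each of the 17 alternatives, coloured by the kind of change and filled where the adjusted p was under 0.05. EOMES and ID2 are filled throughout, and TBX21, TOX2 and PRDM1 are never filled.

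Levels were compared between genes per kilobase of exon. In DMSO the order was TOX2 (182 CPM per kb, SD 8.55), TBX21 (173, SD 8.11), ID2 (128, SD 9.14), ETS1 (61.0, SD 3.09), EOMES (46.6, SD 1.26), NFIL3 (41.1, SD 0.352), TOX (22.9, SD 0.756), PRDM1 (16.5, SD 1.38), GATA3 (15.2, SD 0.714) and ZEB2 (0.143, SD 0.0265). The ranges of TOX2 and TBX21, and of PRDM1 and GATA3, overlapped, while the other neighbours did not. In UNC1999 the same order held except that NFIL3 (31.6 CPM per kb, SD 3.08) and EOMES (27.9, SD 1.78) exchanged places, with overlapping ranges, and TOX2 (173, SD 26.5) and TBX21 (155, SD 14.2) overlapped again. ZEB2 reached 0.291 CPM per kb (SD 0.0284). ZEB2 was the lowest of the 10 in both groups, also per kilobase of the longest transcript.

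**Figure D5:**
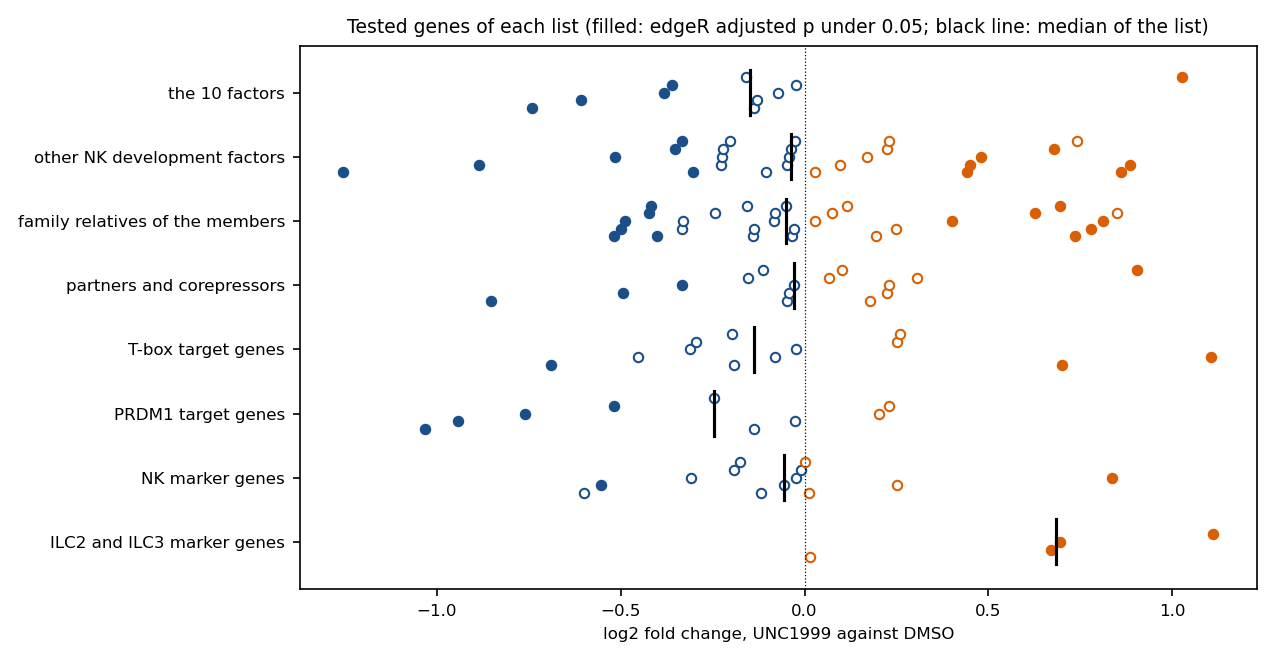
Log2 fold change of every tested gene of each gene list, with 1 point per gene, filled where the edgeR adjusted p was under 0.05, orange above 0 and blue below, and a black line at the median of the list. The 10 factors hold 1 filled point above 0 and 4 below, and the other NK development factors hold 6 of each.

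The other factors known in NK development went both ways: of 27 tested genes of a list of 30, 6 were higher (background 15.7%) and 6 lower (background 19.5%), with a median log2 fold change of -0.036. With offsets 5 were higher and 5 lower (background 15.8% and 18.4%). IRF8, a maturation factor, fell from 262 to 142 CPM (log2 fold change -0.88, edgeR adjusted p = 9.00e-08; -0.55 with offsets). MAF, a leucine zipper factor singled out after its values were seen, fell from 4.56 to 1.90 CPM (-1.25, edgeR adjusted p = 5.89e-04; -1.12 with offsets). RORA, a nuclear receptor of innate lymphoid cells, rose from 18.0 to 32.7 CPM (0.86), but was 0.29 with offsets (edgeR adjusted p = 0.0542) and so not called there. KLF12 rose from 14.1 to 26.0 CPM (0.88, and 0.36 with offsets). Of the relatives of the 10 genes by family, 29 of 47 were tested, 6 higher and 6 lower, and with offsets 2 higher and 4 lower, beside the same backgrounds. ELK3 and ELK4, ETS family factors, rose by 0.81 and 0.74 on the log2 scale, and ETV3 fell by 0.49; ELK4 was 0.21 and not called with offsets. Among partners and corepressors, 15 of 19 were tested, 1 higher and 3 lower, and with offsets 2 higher and 6 lower, beside these backgrounds. KDM1A, a histone demethylase of corepressor complexes, fell from 231 to 128 CPM (-0.85, edgeR adjusted p = 2.37e-07; -0.49 with offsets), and HDAC1, a histone deacetylase, fell by 0.49 (0.16 with offsets).

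Without offsets, most tested genes known as T-box targets did not pass. Of a list of 18, 12 were tested. S1PR5 and CCL3 were listed at 0, and CCL4, CCL5, CX3CR1 and KLRB1 had at most 6 counts in any library. Of the 12, 2 were higher (background 15.7%), 1 was lower (background 19.5%) and 9 did not pass. With offsets 4 were higher (background 15.8%) and 2 lower (background 18.4%). The integrin ITGA4 rose from 138 to 224 CPM (log2 fold change 0.70, edgeR adjusted p = 6.09e-06) and TNFSF10 (TRAIL) from 6.22 to 13.5 CPM (1.11), while the chemokine XCL1 fell from 75.4 to 46.7 CPM (-0.69). PRF1, the pore-forming perforin, named after its values were seen, was at 848 CPM in DMSO and 1009 CPM in UNC1999 (0.25, edgeR adjusted p = 0.0793; 0.0025 with offsets and 5.74e-05 without UNC1999 replicate 2). The cytotoxic granzyme genes GZMA (-0.20) and GZMB (-0.19), also named after their values were seen, went the other way and were not called. With offsets GZMA was -0.25 and called lower (edgeR adjusted p = 0.00434), while GZMB was 0.101 and not called. Of 11 genes known to be repressed by PRDM1, 9 were tested, 0 higher and 4 lower. With offsets 1 was higher and 4 were lower, and both counts stand beside the same backgrounds. MYC fell from 179 to 87.7 CPM (log2 fold change -1.03), S1PR1, a receptor for egress from tissue, fell from 9.97 to 5.16 CPM (-0.94, and -0.57 with offsets), and ID3 is described above. IL2 fell from 114 to 67.5 CPM (-0.76), and its reads may come from the introduced gene.

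Markers of other cell types were low or listed at 0, with exceptions. For these zeros too, unassigned reads were not tested. T cell markers CD3D, CD3G, CD4 and CD8B were listed at 0, CD3E had 5190 to 5760 counts, and the summed level of the 10 T cell markers was 789 to 832 CPM in DMSO and 679 to 774 CPM in UNC1999. TRAC (log2 fold change -0.37) and CD28 (-0.43) were called lower, 2 of 4 tested (background 19.5%). With offsets 1 was higher and 1 lower: CD3E, with 662 CPM in DMSO the most abundant of these markers, went from -0.10 to 0.27 (edgeR adjusted p = 0.00494). TRAC was -0.0014 with offsets and was not called when DMSO replicate 2 (edgeR adjusted p = 0.136) or UNC1999 replicate 3 (0.0501) was left out. CD28 was not called when either DMSO library (0.0784 and 0.144) or UNC1999 replicate 3 (0.144) was left out. The 6 B cell markers summed to 23.8 to 25.6 and 17.3 to 24.5 CPM with MS4A1 at 0 (PAX5 -0.25, not called; -0.38 and called without UNC1999 replicate 2). The 8 myeloid markers summed to 103 to 117 and 99.0 to 136 CPM with LYZ at 0 (ITGAX 0.082, not called). Markers of group 2 and 3 innate lymphoid cells summed to 14.03 to 14.15 CPM in DMSO and 19.8 to 23.8 CPM in UNC1999: KIT (1.11), IL1R1 (0.70) and AHR (0.67; 0.22 and not called with offsets) were higher, 3 of 4 tested of 12 (background 15.7%; 2 of 4 with offsets, background 15.8%), while IL17A was at 0 and IL22 and IL23R had at most 1 read. The call of KIT was lost without DMSO replicate 2 (log2 fold change 0.67) or UNC1999 replicate 1 (edgeR adjusted p = 0.0642), and that of IL1R1 without DMSO replicate 2 (0.61). The call of AHR was lost in 5 of 17 alternatives, including without DMSO replicate 1 (0.38) and with the DESeq2 Wald test (adjusted p = 0.0644). The part of these markers in the changes of the 10 genes was not tested.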

How the data were processed

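RNA of NK92MI cells was sequenced in 2 DMSO and 3 UNC1999 libraries. The deposited values are raw counts of reads for each gene symbol, in 1 table, and columns were matched to samples by name. Among the tools, per the submitters' processing notes, are fastp, STAR 2.7.9, HTSeq 0.13.5 and edgeR 3.34.0, with build hg19. Roles, settings, annotation and strandedness: not given in the sources used here. Near-identical or overlapping genes may therefore share or lose reads.

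Counts were tested with edgeR 4.0.16 (R 4.3.3): filterByExpr, trimmed mean of M-values (TMM) factors (0.954 and 0.961 in DMSO, 1.02, 1.05 and 1.01 in UNC1999), glmQLFit and the quasi-likelihood F-test, with Benjamini-Hochberg adjustment over all 13075 genes and a threshold of 0.05. CPM values use TMM-scaled library sizes. Log2 CPM of libraries correlated at 0.990 to 0.993 within groups and 0.975 to 0.981 between them, and no pair differed by less than sampling noise. Offsets for GC content and length were splines (6 and 4 degrees of freedom) fitted on the 11017 tested genes (84.26%) with values from GENCODE 29 (GRCh38); that build differs from the authors', and no coordinates were converted. Promoter sequences came from RefSeq (GRCh38.p14). Ratios of counts within a library were compared by an exact two-sided permutation test over libraries, with p-values adjusted over the 4 ratios.

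Alternatives were DESeq2 1.42.0 size factors and Wald test, no or upper-quartile factors, no filter or a stricter one (a mean count of 50, and 1 CPM in 2 libraries), robust dispersion, limma-voom (limma 3.58.1), a replicate block, GC and length offsets with and without the block, and each library left out. Offsets without UNC1999 replicate 2 were added after seeing the data. The statistical steps were tested on simulated data. The 10 genes, the lists and the offsets were chosen with earlier results of these data known. Named list genes were up to 3 called genes per list by smallest p, the last replaced by the best gene of the other direction where all went one way, or the most abundant tested gene where none was called. Replicate numbers are shared by 2 pairs, and same-numbered libraries deviated together only weakly (r = 0.0658 and 0.0381). UNC1999 replicate 3 has no DMSO library of the same number, so the block leaves it out of the treatment estimate. No counts-based interval is given beyond the 3-count floor, which covers counting error only.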

Additional observations from a re-analysis of the deposited data

How the results depend on the processing

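EOMES and ID2 kept their direction and call in every one of the 17 alternatives run. ZEB2, the single gene called higher (1 of 10), was no longer called (0 genes higher) with GC and length offsets, with the replicate block and offsets, and with offsets without UNC1999 replicate 2. The 4 calls for lower genes were 2 without normalization factors, and 2 to 4 when each library was left out; a lone DMSO library was assumed to vary like the others. Replicate number 3 occurs only in UNC1999, so with the replicate block that library does not enter the treatment estimate. The block results thus rest on 2 against 2 libraries and nearly repeat leaving that library out (ID2 -0.57 and -0.56). The replicate block alone kept 1 higher and 4 lower, with 1886 higher and 2136 lower over all genes. It moved the log2 differences of the ratios to -0.52 (EOMES to TBX21), -0.013 (TOX to TOX2), 0.38 (ZEB2 to ZEB1) and -0.59 (ID2 to E proteins). Without factors all genes shifted by 0.10 on the log2 scale, and the split of higher to lower calls over all genes was 2949 to 1742, with upper-quartile factors 2625 to 2021, against 2057 to 2546 with TMM. Calls over all genes fell to 1158 and 1367 without DMSO replicate 1, to 1309 and 1667 without DMSO replicate 2, and to 1084 and 1384 with block and offsets. The sign turned for TOX2 without factors (0.031), with offsets (0.00058), without UNC1999 replicate 2 (-0.13 to 0.062 over the libraries left out) and with offsets without it (0.072); for ETS1 with DESeq2 size factors or the Wald test (0.0020), without factors (0.082), with upper-quartile factors (0.047) and with the stricter filter (0.019), and from -0.077 to 0.040 over the libraries left out; and for PRDM1 with offsets without UNC1999 replicate 2 (0.037). TRAC was 0.0047 with block and offsets and 0.070 with offsets without UNC1999 replicate 2; EZH1 was 0.0018 with offsets, 0.042 with block and offsets and 0.0091 with offsets without UNC1999 replicate 2; KLRD1 was 0.050 without factors, 0.016 with upper-quartile factors, 0.034 with the replicate block and -0.19 to 0.089 over the libraries left out; CD3E was 0.0019 without factors, 0.22 with block and offsets, 0.27 with offsets and 0.38 with offsets without UNC1999 replicate 2; TCF3 was 0.059 without factors, 0.026 with upper-quartile factors and -0.13 to 0.060 over the libraries left out; ITGAX ran from -0.045 to 0.21 over the libraries left out. The TOX to TOX2 difference, never beyond its spread, was 0.025 without DMSO replicate 2 and 0.036 without UNC1999 replicate 1. Of 28 called genes outside the 10, 13 kept their call in every alternative giving a p-value and 6 lost it with offsets. CD244, HDAC1, S1PR1 and SUZ12 lost it with block and offsets alone. The cause of these changes was not tested. With 2 against 3 libraries no exact test reaches 0.05, and at 25 to 74 reads ZEB2 is the least precise of the 10.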
